A study of Homo sapiens with 8 samples.

Results

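The suppressors of cytokine signalling (SOCS) family was examined by Ago2-RIP-Chip in ST486, an established Burkitt lymphoma B-cell line with low endogenous miR-155. The family was taken as SOCS1, SOCS2, SOCS3, SOCS4, SOCS5, SOCS6, SOCS7 and CISH, 8 genes of the 16557 with a symbol on the array. Its members were found through the RefSeq accession that the array gives for each non-control probe, which yielded 16 probes of 41000, 2 per gene. Cells carried either the empty retroviral MXW-PGK-IRES-GFP vector (EV-ST486) or the same vector with the miR-155 precursor and its flanks (miR-155-ST486). The paper describes sorting of GFP+ cells for its check of the overexpression and does not state it for the array cells. Both groups are transduced derivatives of 1 cell line. From each, total RNA (T) and RNA co-immunoprecipitated with Ago2, the Argonaute protein that carries miRNAs, were labelled once with Cy3 and once with Cy5 and hybridized against each other in both dye orientations. There was thus 1 RNA sample per condition (n = 1) with 2 labellings as technical repeats, so no test between conditions was possible. The main ratios of the detected members are given with both labellings. The 2 slides held 1 vector each, so slide and vector cannot be told apart.

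SOCS proteins and CISH form the classical negative feedback loop of JAK/STAT signalling. A cytokine receptor activates its JAK kinases, these phosphorylate STAT transcription factors, and the STATs switch on SOCS genes among others. The SOCS proteins bind the receptor or the JAK through their SH2 domain, and through the SOCS box they recruit elongins and a cullin ubiquitin ligase. SOCS1 is also widely known as a miR-155 target in T cells and macrophages. A miRNA guides Ago2 to transcripts through its seed, bases 2 to 8, so the IP/T ratio compares the Ago2-bound RNA of a probe with its total RNA, and the miR-155/EV ratio compares the IP/T ratios of both cell populations.

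The mature miRNAs of the ectopic precursor are shown because their seeds, in capitals, are what the vector adds to the cells. Both were taken from RefSeq, build GRCh38.p14, and lie on the plus strand at chr21:25573983-25574006 and chr21:25574022-25574043 within the MIR155 gene.
hsa-miR-155-5p: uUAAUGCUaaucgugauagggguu
hsa-miR-155-3p: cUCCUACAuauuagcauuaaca
A transcript site that pairs with the whole seed of hsa-miR-155-5p reads AGCATTA in DNA letters. Whether the SOCS family transcripts carry such sites was not analysed here.

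A probe was counted as detected in a channel where the scanner software called it well above background, positive and significant. Of the 41000 probes, 47.5% were detected in at least 4 of the 8 channels, and 7 of the 16 SOCS family probes were. Both probes of SOCS1, SOCS5 and CISH and 1 of SOCS4 were among them. After the further filter, which removed probes that differed over 2-fold between the labellings of any sample, 37.9% of all probes and 3 of the 16 members remained, both SOCS1 probes and 1 CISH probe. The 4 members lost at that step were 1 probe of SOCS4, both of SOCS5 and 1 of CISH, so their ratios rest on labellings that disagreed and are given as descriptions. No probe of SOCS2, SOCS3 or SOCS6 was detected in any channel.

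**Figure D1:**
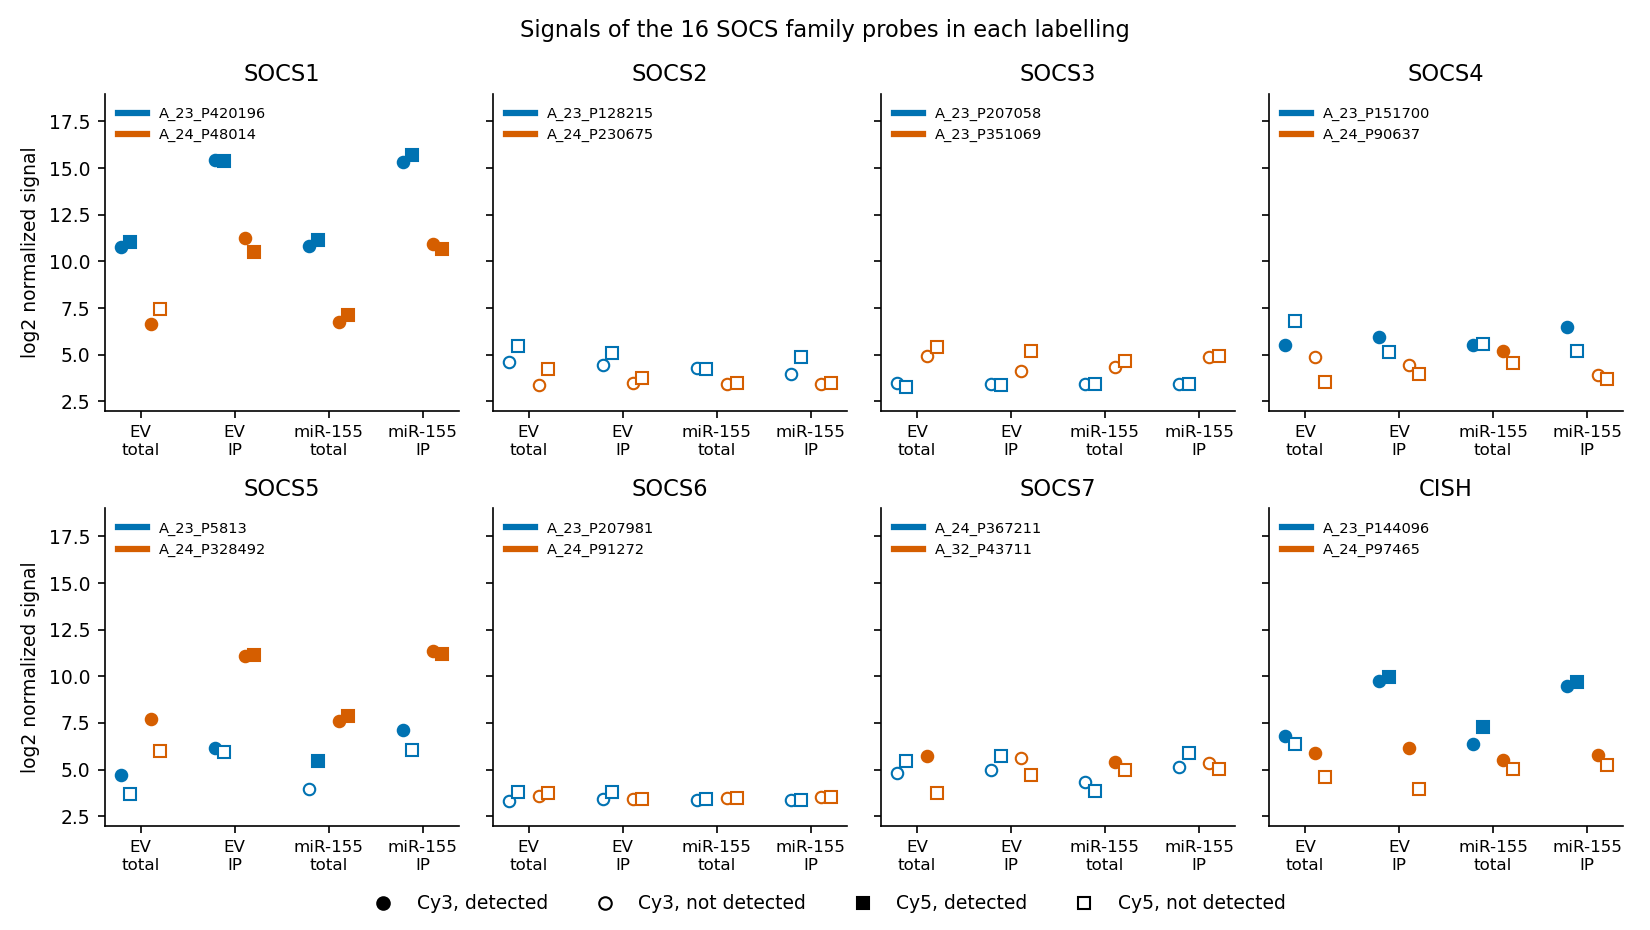
Normalized signal (log2, y axis) of both probes of each SOCS family gene in total and IP RNA of EV-ST486 and miR-155-ST486 (x axis). Circles are Cy3 and squares Cy5 labellings, and open symbols are channels in which the probe was not detected. SOCS1, probe A_24_P328492 of SOCS5 and probe A_23_P144096 of CISH sat well above their total signals in the IP RNA of both vectors, while all symbols of SOCS2, SOCS3 and SOCS6 are open.

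SOCS1, the inhibitor that binds JAKs and blocks their activity directly, was strongly enriched in the Ago2-IP fraction of both cell populations, with IP/T ratios that differed less between the vectors than between the dye orientations. Its probe A_23_P420196 (NM_003745) was detected in all 8 channels. In EV-ST486 its normalized signals were 1754 (Cy3) and 2098 (Cy5) in total RNA and 44452 and 43096 in IP RNA. In miR-155-ST486 they were 1794 and 2239 in total RNA and 41231 and 52851 in IP RNA. All 4 IP labellings therefore lay far above all 4 total labellings, while the labellings of the vectors overlapped in both fractions. The IP/T ratio was 22.8 in EV-ST486 (24.6 with total RNA in Cy3 and 21.2 with total RNA in Cy5) against 23.3 in miR-155-ST486 (29.5 and 18.4). Of the 15529 probes kept, this probe ranked 38 by IP/T in EV-ST486 against 20 in miR-155-ST486. The miR-155/EV ratio was 1.02, and the dye orientations lay on either side of 1 (1.20 and 0.87).

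The second SOCS1 probe, A_24_P48014, gave the same picture at much dimmer signals. They were 99.8 (Cy3) and 178 (Cy5) in total RNA and 2410 and 1470 in IP RNA of EV-ST486. In miR-155-ST486 they were 108 and 138 in total RNA and 1939 and 1600 in IP RNA. The probe was detected in 7 of 8 channels, the Cy5 labelling of EV total RNA being the exception. Its IP/T ratio was 14.1 in EV-ST486 (14.7 and 13.6) against 14.4 in miR-155-ST486 (14.8 and 14.1), with ranks of 85 and 70. The miR-155/EV ratio was again 1.02 (1.00 and 1.04). The IP/T ratios of both SOCS1 probes differed by 0.69 on the log2 scale in EV-ST486, less than the 1.20 that bounded 95% of kept probes when the dye orientations were compared.

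SOCS5, a member with a long N-terminal region that acts on epidermal growth factor and interleukin-4 receptor signalling, was also higher in IP than in total RNA on both probes. Probe A_24_P328492 (NM_144949) had signals of 210 (Cy3) and 64.6 (Cy5) in total RNA and 2210 and 2245 in IP RNA of EV-ST486. In miR-155-ST486 they were 197 and 230 in total RNA and 2621 and 2305 in IP RNA. The probe was lost to the dye filter through EV total RNA, where the labellings differed 3.26-fold and the Cy5 one was not detected. Its IP/T ratio was 11.5 in miR-155-ST486, where the orientations were close (11.7 and 11.4), and 19.1 in EV-ST486, where they were far apart (10.7 and 34.2). With total RNA in Cy3, the orientation in which every signal was detected, the miR-155/EV ratio was 1.10. With total RNA in Cy5 it was 0.33.

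The other SOCS5 probe, A_23_P5813, was dim and detected in 4 channels. Its signals in EV-ST486 were 26.0 and 12.8 in total RNA and 72.5 and 62.0 in IP RNA, and in miR-155-ST486 they were 15.8 and 44.5 in total RNA and 138 and 66.5 in IP RNA. Both IP labellings exceeded both total labellings in each vector. The IP/T ratio was 3.67 in EV-ST486 (2.39 and 5.64) against 3.61 in miR-155-ST486 (4.22 and 3.09), and the miR-155/EV ratio of 0.98 spanned 1.76 to 0.55 between the orientations.

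CISH, the founding family member, which is induced through STAT5 and binds receptor tails, was enriched on one probe and not on the other. Probe A_23_P144096 (NM_145071) had signals of 111 (Cy3) and 82.9 (Cy5) in total RNA and 872 and 985 in IP RNA of EV-ST486. In miR-155-ST486 they were 83.7 and 158 in total RNA and 714 and 830 in IP RNA. It was detected in 7 channels, all but the Cy5 labelling of EV total RNA. The IP/T ratio was 9.66 in EV-ST486 (8.86 and 10.5) against 6.69 in miR-155-ST486 (9.92 and 4.51), at ranks 178 and 297. The miR-155/EV ratio was 0.69, with orientations of 1.12 and 0.43 that lay on either side of 1. They differed by 1.38 on the log2 scale, more than the 1.05 that bounded 95% of kept probes.

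Probe A_24_P97465, annotated to the same CISH accession, was detected in the 4 Cy3 labellings alone. Its signals were 60.1 and 24.1 in total RNA and 72.5 and 15.8 in IP RNA of EV-ST486, and 46.2 and 32.9 in total RNA and 55.1 and 37.4 in IP RNA of miR-155-ST486. Total and IP signals overlapped in EV-ST486, where the IP labellings differed 4.60-fold. Its IP/T ratio came to 0.89 (0.26 and 3.01) in EV-ST486 against 1.17 (0.81 and 1.68) in miR-155-ST486. The enrichment of CISH therefore rests on 1 of its 2 probes.

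SOCS4, the closest relative of SOCS5, did not reach an IP/T ratio of 2 in either vector. Probe A_23_P151700 (NM_199421), detected in the 4 Cy3 labellings, had signals of 46.6 and 113 in total RNA and 62.8 and 35.0 in IP RNA of EV-ST486. In miR-155-ST486 they were 45.8 and 48.4 in total RNA and 91.0 and 36.5 in IP RNA. Total and IP signals overlapped in both vectors. Its IP/T ratio came to 0.64 (0.75 and 0.55) in EV-ST486 against 1.23 (0.80 and 1.88) in miR-155-ST486. The miR-155/EV ratio of 1.90 came from the orientation with total RNA in Cy5 (3.40), whose total RNA labellings were not detected, against 1.06 in the other. The second probe, A_24_P90637, was detected in 1 channel, total RNA of miR-155-ST486 in Cy3, at a signal of 36.5. On background-corrected, loess- and Aquantile-normalized values, total over IP RNA of miR-155-ST486 was 1.08 for this probe. Total RNA of miR-155-ST486 over EV-ST486 was 0.99. Both ratios include labellings in which the probe was not detected, so neither is a bound.

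The remaining genes gave no measurable ratio. SOCS7, which interacts with adaptor proteins and insulin receptor substrates, was detected in 2 channels on probe A_32_P43711, the Cy3 labellings of total RNA, at 53.4 in EV-ST486 against 42.8 in miR-155-ST486. Its other probe, A_24_P367211, was not detected in any channel, with signals between 14.6 and 60.4. SOCS2, a regulator of growth hormone signalling, was not well above background on either probe, with signals from 10.5 to 44.8. SOCS3, the main inhibitor of interleukin-6 family receptors, lay between 9.81 and 43.3, and SOCS6, which binds the receptor kinase KIT, between 10.1 and 13.9. No fold is given for these 3 genes, and the arrays do not tell whether their transcripts were absent.

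**Figure D2:**
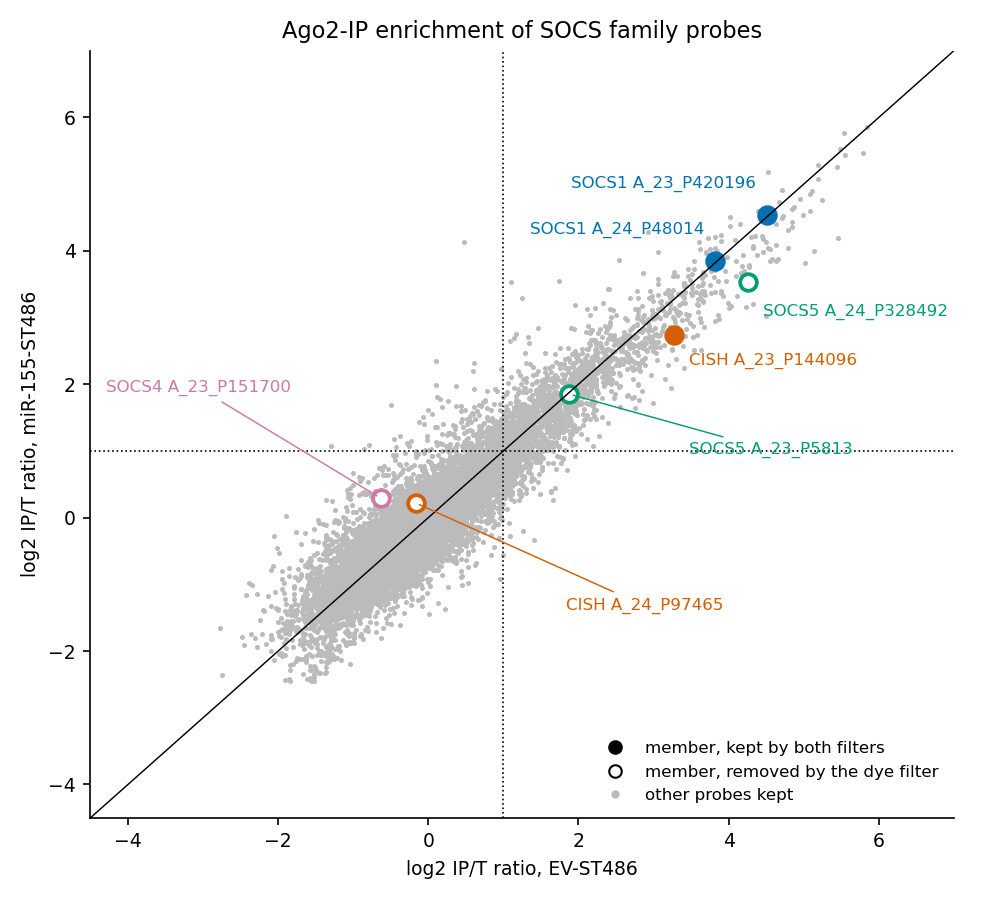
IP/T ratio (log2) in EV-ST486 (x axis) and miR-155-ST486 (y axis) of the probes kept by both filters (grey, n = 15529 with the members) and of the SOCS family probes detected in at least 4 channels (coloured, open where the dye filter removed them). Dotted lines mark an IP/T ratio of 2 and the solid line marks equal ratios. Both SOCS1 probes lie on the line of equal ratios at IP/T ratios of 22.8 and 14.1 in EV-ST486.

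Across the family, an IP/T ratio ≥ 2 was seen for 3 of the 3 kept members in EV-ST486, where 12.1% of all kept probes reached it, and for 3 of 3 in miR-155-ST486, where 12.2% did. Both SOCS1 probes, but not CISH, reached an IP/T ratio of 8 in both vectors, as did 1.22% of kept probes. Without the dye filter, 5 of 7 members had an IP/T ratio ≥ 2 in both vectors, against 9.88% of the 19469 detected probes. The exceptions were CISH A_24_P97465 and SOCS4 A_23_P151700. The members' median IP/T ratios were 14.1 in EV-ST486 against 14.4 in miR-155-ST486, beside medians of 0.90 and 0.88 over all kept probes. The 3 members stand for 2 genes, and probes of 1 gene share their transcript, so these counts describe SOCS1 and CISH.

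By IP/T ratio the kept members were ordered SOCS1 A_23_P420196, SOCS1 A_24_P48014, CISH A_23_P144096 in both vectors. In EV-ST486 the first and the last differed by 1.24 on the log2 scale, slightly over the 1.20 that bounded the dye orientations, and neighbours in the order differed by 0.69 and 0.55, within it. In miR-155-ST486, where the orientations of 95% of kept probes lay within 0.86, SOCS1 A_24_P48014 and CISH differed by 1.11, while CISH's own orientations differed by 1.14.

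The miR-155/EV ratio addresses whether ectopic miR-155 brought more of a transcript into the Ago2-IP fraction. It was at least 2 for 1.15% of kept probes and at most 0.5 for 0.477%, and for none of the 3 kept SOCS family probes in either direction. The ratios of 1.02, 1.02 and 0.69 compare with a median of 0.98 and a 5th to 95th percentile range of 0.68 to 1.47 over all kept probes. Of these, 42.3% and 42.7% had a ratio at or above those of the SOCS1 probes and 94.4% at or above that of CISH. JARID2, a known miR-155 target that the study followed up, served as a reference. The study had picked JARID2 from genes whose Ago2-IP enrichment in ST486 rose 2-fold or more with the miR-155 vector. JARID2 was therefore bound to show a raised miR-155/EV ratio. Its signals were 599 and 673 in total RNA and 1270 and 1599 in IP RNA of EV-ST486, and 402 and 508 in total RNA and 2959 and 3166 in IP RNA of miR-155-ST486. Its IP/T ratio was 2.24 in EV-ST486 against 6.78 in miR-155-ST486, a miR-155/EV ratio of 3.02 with orientations of 2.95 and 3.09. SOCS1 thus had a higher IP/T ratio than JARID2 in both vectors and a lower miR-155/EV ratio. The difference in miR-155/EV ratio partly reflects how JARID2 was chosen and does not show how an unselected target would behave.

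**Figure D3:**
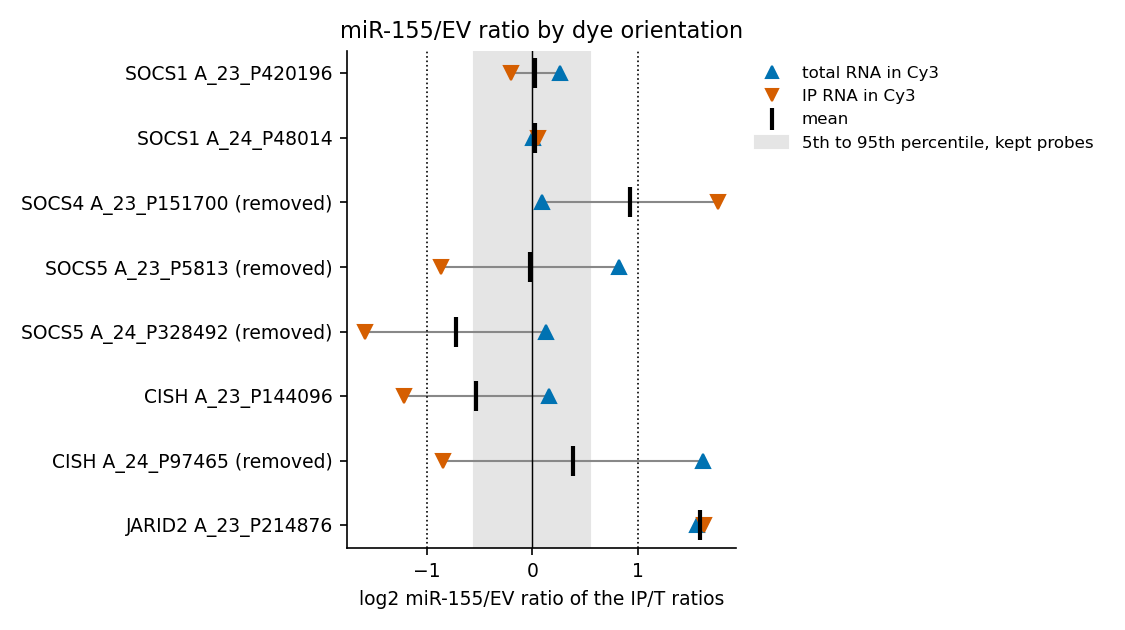
miR-155/EV ratio (log2, x axis) of the SOCS family probes detected in at least 4 channels and of the reference JARID2. Triangles are the dye orientations, black bars their mean, the grey band spans the 5th to 95th percentile of kept probes, dotted lines mark ratios of 2 and 0.5, and "removed" marks probes lost to the dye filter. The SOCS1 probes sit at 1.02, whereas the 4 removed probes and CISH A_23_P144096 have orientations on either side of 1 or far apart.

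Total RNA was compared between the vectors for a lower level with ectopic miR-155. It was at least 2-fold lower in miR-155-ST486 for 0.38% of kept probes and for 0 of the 3 kept members. Ratios of miR-155-ST486 to EV-ST486 are given as means, with the Cy3 and Cy5 labellings in parentheses. SOCS1 total RNA was at 1.04 (1.02 and 1.07) on A_23_P420196 and 0.92 (1.09 and 0.78) on A_24_P48014. For CISH A_23_P144096 it was 1.20 (0.75 and 1.91). On A_24_P48014 and CISH, the Cy5 labelling of EV total RNA was not detected. The IP signals in the same order were at 1.07 (0.93 and 1.23), 0.94 (0.80 and 1.09) and 0.83 (0.82 and 0.84). Only the A_23_P420196 total and CISH IP labellings lay on the same side of 1. All 6 means lay between the 5th and 95th percentiles of kept probes, 0.68 to 1.52 for total and 0.64 to 1.57 for IP RNA. Over the processing settings described below, the total RNA ratio ran from 0.63 to 1.46 on SOCS1 A_23_P420196 and from 0.68 to 1.18 on A_24_P48014. For CISH A_23_P144096 it ran from 0.73 to 1.91. The direction of the total RNA ratio thus depended on the processing for all 3 probes. In these bulk RNAs, fewer cells with a transcript and less of it per cell cannot be told apart, and SOCS protein was not measured.

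As a check of the vector, MIR155HG, the host transcript of miR-155, was not detected in the 4 labellings of EV-ST486 (signals of 11.4 to 19.2). In miR-155-ST486 it was detected in both labellings of total RNA (121 and 107) and in 1 of 2 of IP RNA (49.8 and 85.3). On the signals quoted, miR-155-ST486 over EV-ST486 was 7.71 in total and 5.13 in IP RNA, with EV signals that were not detected. On background-corrected, loess- and Aquantile-normalized values, whose offset of 50 compresses low signals, these ratios were 1.40 and 1.37. Where this probe lies relative to the cloned insert is not given in the sources used here. Of 8 B-cell marker probes, 7 were detected in at least 4 channels (summed signal per channel 25287 to 32846), against 0 of 5 for T cells (98.5 to 149), 1 of 4 for myeloid cells (75.7 to 168) and 2 of 6 for epithelial cells (429 to 968).

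The genes with a pattern most like each kept member were sought by the root mean square (RMS) of the log2 difference over the 8 channels, each probe centred on its own mean, among 11044 kept probes with a symbol. Nearest to SOCS1 A_23_P420196 were YAE1 (RMS 0.13), NABP1 (0.14) and ZNF124 (0.18), with IP/T ratios of 21.0, 22.7 and 22.7 in EV-ST486. Nearest to SOCS1 A_24_P48014 were PKN2 (0.22), LRRC1 (0.23) and CCNE1 (0.26). Nearest to CISH A_23_P144096 were MICU3 (0.17), FAS (0.18) and MYBL1 (0.22), with IP/T ratios of 6.51, 6.69 and 6.65 in miR-155-ST486 and 11.5, 12.0 and 8.51 in EV-ST486. The same 8 channels give the IP/T ratios, so likeness of these ratios to those of the members follows from the selection.

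The rest of the pathway was described from gene lists, for which the same background shares and medians apply. Upstream of the SOCS proteins, none of 5 kept JAK kinase probes (4 genes) had an IP/T ratio ≥ 2 in either vector, with a median of 0.88 in EV-ST486. Of 11 kept cytokine receptor probes, 1 reached 2, IFNGR2, a chain of the interferon-gamma receptor, at 6.12 in both vectors, and 29 of the 47 receptor probes were never detected. Among 13 probes of cytokine ligands 1 was kept, OSM, an interleukin-6 family cytokine, with IP/T ratios of 10.6 and 10.3 and a miR-155/EV ratio of 0.97.

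Other inhibitors of the pathway gave 2 of 15 kept probes with an IP/T ratio ≥ 2, with a list median of 0.95 in EV-ST486. Both were of SH2B3, an adaptor that restrains JAK2 (6.26 against 6.33 on one probe and 3.68 against 3.81 on the other, EV-ST486 first). The subunits that the SOCS box recruits gave 4 of 7 in EV-ST486 against 3 of 7 in miR-155-ST486, with medians of 2.39 and 1.85. They were CUL2 (3.16 and 2.34), RNF7 (2.48 and 3.14) and ELOC (2.39 and 2.78) in both vectors, and CUL5, the scaffold cullin of SOCS ligases, in EV-ST486 alone (2.88 and 1.85). Among 14 kept probes of other SOCS box genes, 1 reached 2, WSB1 (3.41 and 2.58), at a median of 0.94 in EV-ST486. Of 8 kept probes of STAT target genes, 4 did in EV-ST486 against 5 in miR-155-ST486, at medians of 2.20 and 2.48. IRF9, a DNA-binding component of the interferon-activated STAT complex, had IP/T ratios of 24.8 and 17.0, the kinase PIM1 7.97 and 5.88, the survival factor MCL1 2.86 and 3.53 on 1 of its 2 kept probes, and the transcription factor IRF1 2.64 and 2.78. BCL2, another survival factor, reached 2 in miR-155-ST486 alone (1.84 and 2.22). Some of these ratios rest on dim EV total RNA, detected in 1 of 2 labellings. Its signals were 81.1 and 82.8 for IRF9, 39.2 and 47.4 for the SH2B3 probe at 6.26, and 108 and 120 for CUL2. Ratios of the list probes under other processing are not given here.

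**Figure D4:**
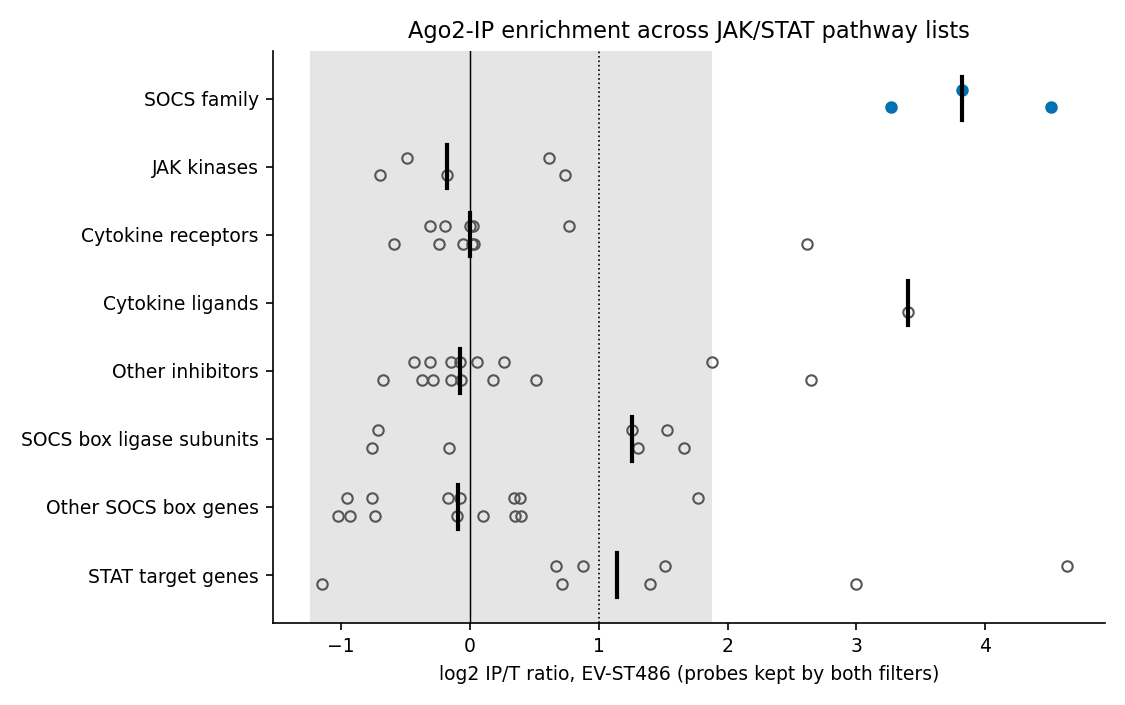
IP/T ratio in EV-ST486 (log2, x axis) of the kept probes of the SOCS family (filled) and of the JAK/STAT pathway lists (open). Bars are medians, the grey band is the 5th to 95th percentile of all kept probes and the dotted line marks a ratio of 2. The 3 kept SOCS family probes lie to the right of the band, at 9.66, 14.1 and 22.8, as do 1 probe each of receptors and ligands and 2 each of other inhibitors and STAT targets.

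Across these lists, 0 of 61 kept probes reached a miR-155/EV ratio of 2 and 0 were at or below 0.5. Apart from OSM, the highest ratios of the lists were 1.29 (JAK1), 1.35 (IL10RB), 1.48 (CBL), 1.27 (RNF7), 1.59 (WSB2) and 1.24 (MCL1). The lowest were 0.70 (JAK3), 0.68 (IL9R), 0.83 (PTPN2), 0.64 (CUL5), 0.76 (WSB1) and 0.68 (IRF9).

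The size of the IP/T ratios depended on how background was removed, most for dim probes. With background corrected by normexp, a convolution model with an offset of 50 that compresses low signals, followed by quantile normalization, the ratio of SOCS1 A_23_P420196 was 9.27 in EV-ST486 against 9.68 in miR-155-ST486. Under it SOCS1 A_24_P48014 was 1.83 in both vectors, SOCS5 A_24_P328492 1.58 and 1.81, and CISH A_23_P144096 1.39 in both, all under 2. When the 33 spots with a local background above 500 were first set to the median of their channel, SOCS1 A_23_P420196 gave 20.9 and 18.6, SOCS1 A_24_P48014 4.71 and 4.80, SOCS5 A_24_P328492 3.60 and 4.52, and CISH A_23_P144096 2.58 and 2.63. SOCS5 A_23_P5813 stayed between 1.02 and 1.31 under all 4 normexp settings. Only SOCS1 A_23_P420196 was above 2 in both vectors under all settings tried. Its miR-155/EV ratio ran from 0.87 to 1.20 except under normexp with loess and Aquantile normalization and no such replacement, where it was 2.50. Under that setting the miR-155/EV ratio was 1.72 for SOCS1 A_24_P48014, 1.82 for SOCS5 A_24_P328492 and 1.57 for CISH A_23_P144096. With high backgrounds replaced before loess and Aquantile normalization it was 1.54, 2.13 and 1.38, so the SOCS5 probe passed 2 there, and CISH lay above 1 under either setting.

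**Figure D5:**
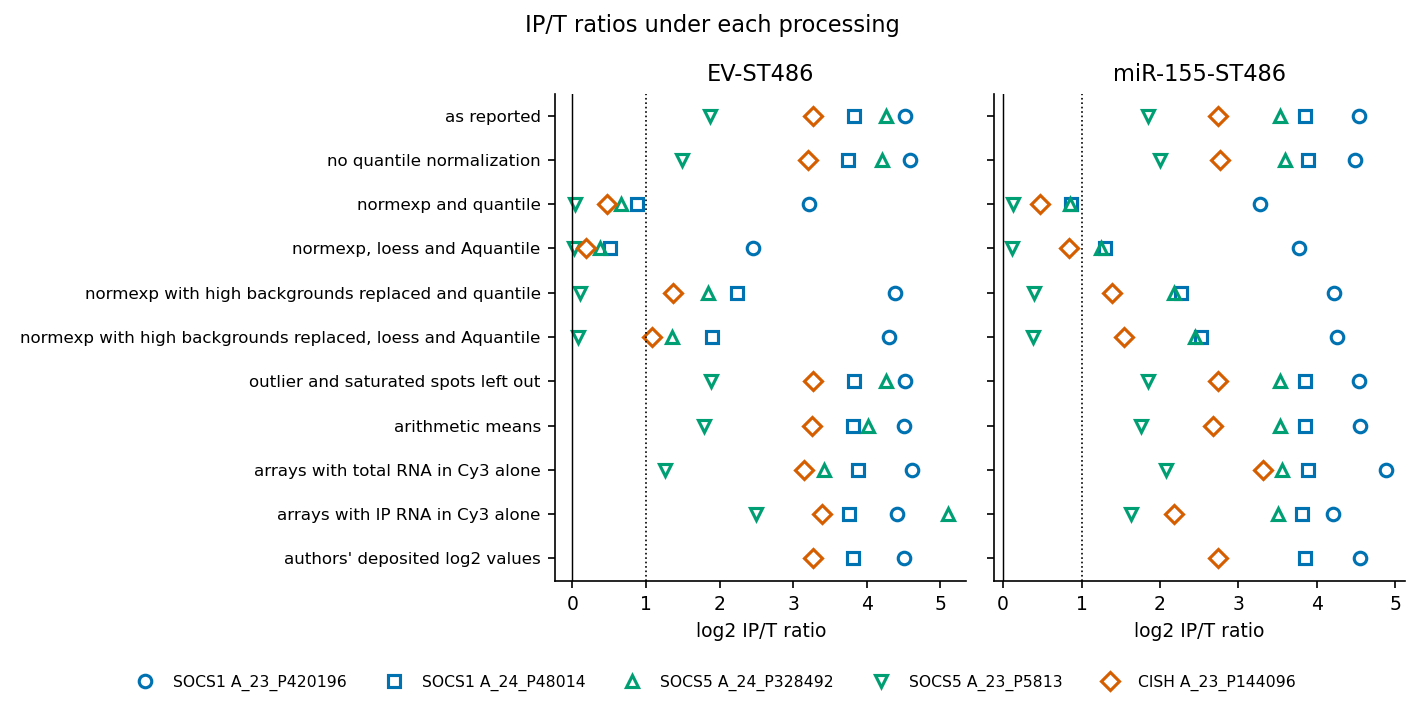
IP/T ratio (log2, x axis) of 5 SOCS family probes in EV-ST486 (left) and miR-155-ST486 (right) under each processing (y axis). Dotted lines mark a ratio of 2. SOCS1 A_23_P420196 is right of the dotted line in every row, while the dimmer probes fall below it in EV-ST486 under normexp without replacement of high backgrounds.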

How the data were processed

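Total RNA and Ago2-bound RNA of ST486 cells with either vector, 4 RNA samples, were measured on 4 two-colour Agilent arrays in both dye orientations. The deposited intensity values were extracted by the authors with Agilent Feature Extraction 10.5.1.1, which per the file headers subtracted background and normalized the dyes. The log2 values that the authors deposited were made by quantile normalization with filters on detection and on labelling differences. They cover 14453 probes, and 99.9% of these lay within 0.05 of the values computed here.

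Control spots were left out (43376 spots remained), replicate spots of a probe were averaged, 1 was used as the floor of the signal, and the log2 signals of the 8 channels were brought to 1 distribution (quantile normalization). Signals in the text are these values on the linear scale. A probe was kept when detected in at least 4 channels (14094 to 22161 probes were detected per channel) and within 2-fold between the labellings of every sample, which left 15529 probes. Labellings were averaged on the log2 scale. No spot was saturated. With 4 arrays and 1 RNA sample per condition, precision is limited and no test was made.

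Symbols were taken through RefSeq accessions from a RefSeq gene table, which matched 23958 of 41000 probes, and no coordinates of genes were used. All 16 member probes are described. From each list of pathway genes and B-cell, T-cell, myeloid and epithelial markers, counts, medians and the highest and lowest miR-155/EV ratio are given, with JARID2 and MIR155HG as references and the 3 nearest genes of each kept member. Other genes are named where their IP/T ratio reached 2 on a list. Results for the STAT factors list are not reported here. The members and lists were chosen with earlier results of these data known.

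Alternatives were normalization, normexp background correction (limma 3.58.1, R 4.3.3), both filters, the mean of the labellings, single dye orientations, the threshold, outlier spots and the deposited log2 values. Calculations used Python 3.11.15, numpy 2.4.6 and pandas 2.3.3, and the calculations were tested on simulated data.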

Additional observations from a re-analysis of the deposited data

How the results depend on the processing

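Of 17 alternative settings, those that changed the ratio threshold or asked for it in each dye orientation bore on the counts alone. Over the others, 397 of 470 recomputed values of the 7 probes detected in at least 4 channels moved by less than the spread between the labellings. Settings that change only a filter return the ratio of a probe unchanged, so many of these values could not move. The tally is therefore no measure of robustness. No called value reversed. As reported, none of the 7 probes was past a miR-155/EV threshold, so that ratio had no call to reverse. For SOCS5 A_24_P328492 it nevertheless ran from 0.33 to 2.13. Under normexp, loess and Aquantile the IP/T ratio in EV-ST486 fell to 1.42 for SOCS1 A_24_P48014 and to 1.13 for CISH A_23_P144096. The number of kept members, 3 as reported, was 1 with detection required in all 8 channels, 9 without a detection filter, 7 without the dye filter, 7 under normexp with quantile normalization with or without replacement of high backgrounds, and 5 with replacement, loess and Aquantile. The members with an IP/T ratio ≥ 2, 3 as reported in each vector, were 1 in each with detection in all channels, 5 in each without the dye filter, 1 in each under normexp and quantile, and 0 in each under normexp, loess and Aquantile, where SOCS1 A_23_P420196 (IP/T 5.46 with EV and 13.7 with miR-155) failed the dye filter. Members with a miR-155/EV ratio ≥ 2, 0 as reported, were 1 without a detection filter. Members at or below 0.5, 0 as reported, ranged from 0 to 1 when either dye orientation was used alone, CISH A_23_P144096 reaching 0.43 with IP RNA in Cy3. The other counts stayed within 1.5 times. No paired analysis was possible because replicate numbers are the dyes of 1 RNA sample and no result comes from a test. In EV total RNA, the dimmer SOCS1 probe, CISH A_23_P144096 and SOCS5 A_24_P328492 were detected in 1 of 2 labellings. The normexp offset of 50 by its construction compresses the ratios of dim probes, but no other offset was tried. At the same offset with quantile normalization, SOCS1 A_23_P420196 in EV-ST486 was 9.27 without and 20.9 with replacement of high backgrounds. The cause of the differences between settings was not tested.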
